A study of Mus musculus with 6 samples.

Results

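Sertoli cells line the seminiferous tubules of the testis and nurse the germ cells. The data of 9 genes by which these cells are known are described here: Fshr, Clu, Sox9, Wt1, Gata4, Amh, Inhbb, Cldn11 and Trf. The members are the array probes whose platform annotation gives 1 of these symbols, which found 8 probes for 8 genes among 33012 probes on the array, which name 13840 genes. Each of the 8 genes had 1 probe. No probe was listed for Inhbb, the gene of the inhibin beta B subunit, and it was not analysed here.

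RNA came from whole testes of adult male C57BL/6J mice aged 10 to 12 weeks, on 6 arrays, 2 in each of 3 groups. Each array has an identifier of its own in the labels, read here as 1 mouse. Wild-type mice ate rodent chow, Abcg8 knockout mice ate the same chow, and the remaining Abcg8 knockout mice ate chow with 0.005% ezetimibe, a drug that blocks sterol uptake from the gut. Abcg8 encodes a subunit of the transporter that pumps plant sterols and cholesterol out of gut and liver cells. The labels do not say how the knockout allele was made.

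The probe of Abcg8 was brighter on the knockout-labelled arrays, by 3.88 log2 units (SE 0.13) against wild-type (limma adjusted p = 0.0177). That direction goes against the label, and the labels do not say which stretch of Abcg8 the probe reads. The genotypes are therefore written as labels, and every direction between genotypes rests on them. The median raw signal was 515 to 678 on 5 arrays and 258 on wild-type replicate 2, which also stood apart on the first principal component (53.6, against -17.3 to 0.73 on the others).

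Follicle-stimulating hormone from the pituitary acts in the testis on Sertoli cells alone, through the receptor that Fshr encodes, which raises cyclic AMP. Mature Sertoli cells seal the blood-testis barrier with tight junctions and hand iron to the germ cells behind it. Transcription factors such as Sox9, Wt1 and Gata4 set and hold their identity, while Amh is made by immature cells and is shut down at puberty.

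The Fshr promoter is shown because Fshr had the lowest unadjusted p of the 5 tested Sertoli cell genes in both comparisons that involve knockout-labelled testes on chow, and the Cldn11 promoter is the other one at hand for a measured gene. Promoters of 3 of the 9 genes were in the RefSeq table (build GRCm38.p6), each with 250 bases before and 50 after the gene's start. Capitals mark the E-box CACGTG, the site by which USF proteins are known to act on the Fshr promoter. Fshr lies on chr17:89200626-89200925, minus strand, and Cldn11 on chr3:31149670-31149969, plus strand, both written 5′ to 3′ along the gene.
Fshr: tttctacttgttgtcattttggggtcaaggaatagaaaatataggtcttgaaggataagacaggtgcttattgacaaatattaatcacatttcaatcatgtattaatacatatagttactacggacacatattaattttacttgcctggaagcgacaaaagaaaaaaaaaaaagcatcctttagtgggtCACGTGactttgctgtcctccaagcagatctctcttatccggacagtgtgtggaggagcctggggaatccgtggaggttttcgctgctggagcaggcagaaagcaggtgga
Cldn11: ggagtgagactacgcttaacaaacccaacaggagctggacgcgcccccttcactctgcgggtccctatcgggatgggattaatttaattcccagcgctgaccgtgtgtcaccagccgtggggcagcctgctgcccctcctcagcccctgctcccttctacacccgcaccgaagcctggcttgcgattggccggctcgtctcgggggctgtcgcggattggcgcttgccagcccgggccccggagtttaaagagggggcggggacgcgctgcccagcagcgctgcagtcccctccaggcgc
The E-box stood 61 to 56 bases before the Fshr start and was not found in the Cldn11 window. Of 32851 promoters of the same length, 7.15% held it. The other motifs searched, on both strands, were AAGGTCA for SF-1, AGATAA for GATA factors and AACAAT for SOX factors, and none of these letters stood in the Fshr or Cldn11 window, while 4.72%, 11.2% and 10.7% of all promoters held them. The base composition differed, with 40.7% G and C for Fshr and 66.3% for Cldn11, against a median of 52.7%. No data on binding or methylation were part of the files.

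The array checked the label of the tissue in part. A probe counts as detected at a signal-to-noise of at least 3, as deposited. Fshr, Clu, Wt1, Cldn11 and Trf were detected on all 6 arrays, Sox9 on 2, and Gata4 and Amh on none. Testing required detection on both arrays of some group, and 16015 probes met this, these 5 Sertoli cell genes among them. Since the 5 were detected everywhere, none entered through the group in which it was bright. Values below are quantile-normalised log2 signals unless called raw, and differences are in log2 units with the SE from limma. In whole testis, fewer Sertoli cells and less RNA per cell cannot be told apart.

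**Figure D1:**
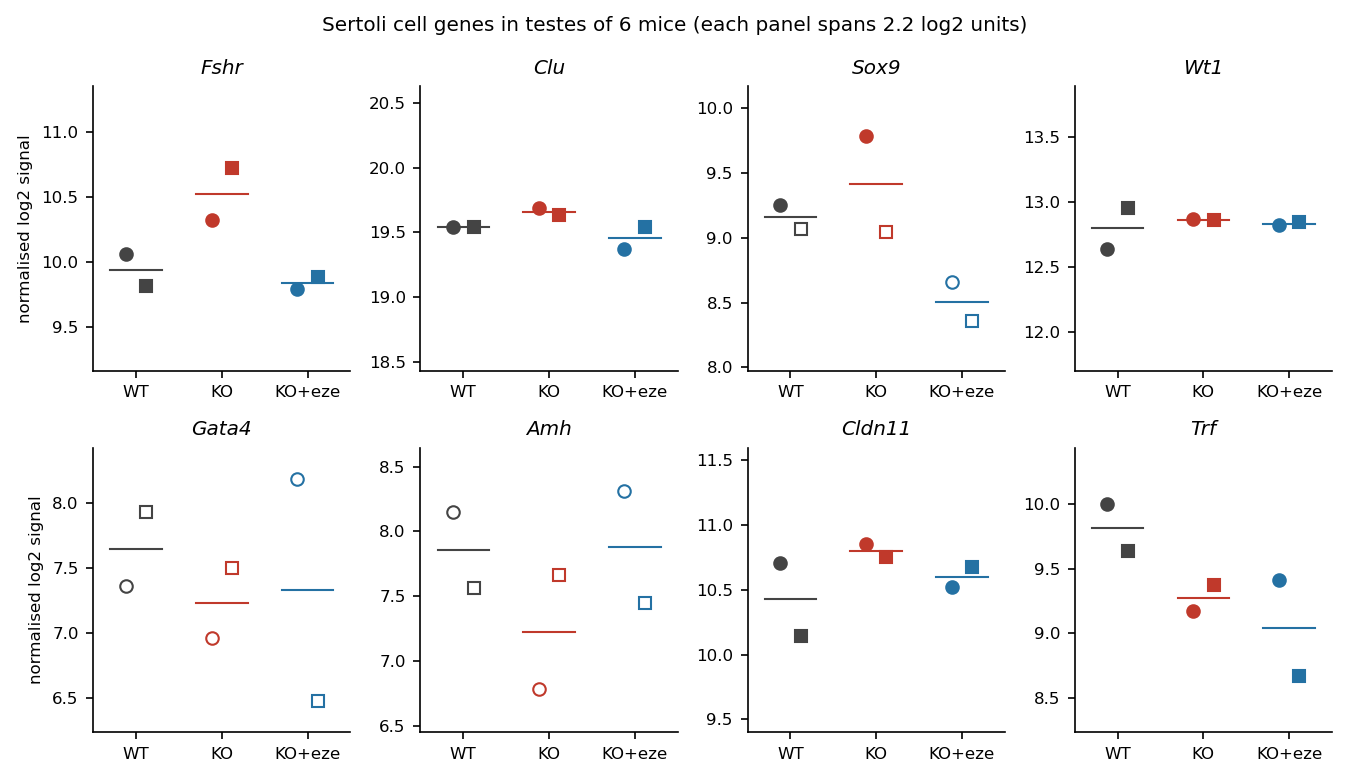
Normalised log2 signal of the 8 Sertoli cell genes on each array, for wild-type (WT), knockout-labelled (KO) and ezetimibe-fed knockout-labelled (KO+eze) testes; circles are replicate 1, squares replicate 2, lines group means, and open symbols probes with a signal-to-noise under 3. Each panel covers 2.2 log2 units on its own axis. Both knockout-labelled arrays on chow read above the other 4 for Fshr, and both wild-type arrays read above the rest for Trf.

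Fshr, the receptor for follicle-stimulating hormone, read 10.06 and 9.81 in wild-type testes, 10.32 and 10.72 in knockout-labelled testes and 9.79 and 9.89 in ezetimibe-fed knockout-labelled testes. Both knockout-labelled arrays on chow stood above all 4 others, and the wild-type and ezetimibe groups overlapped. The raw signals were 1420 and 416, 1563 and 1742, and 1020.5 and 1106 in the same order, and wild-type replicate 2 was low in raw signal as that whole array was. Fshr was a dim probe, with a signal-to-noise of 3.44 to 10.65.

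The mean Fshr signal was 9.94 ± 0.17 (SD, n = 2) in wild-type, 10.52 ± 0.28 (SD, n = 2) in knockout-labelled and 9.84 ± 0.07 (SD, n = 2) in ezetimibe-fed testes. The knockout-labelled mean was 1.50-fold the wild-type mean, a difference of 0.59 (SE 0.18, 95% interval 0.13 to 1.04), and it did not pass (limma adjusted p = 0.495, unadjusted p = 0.0214). With ezetimibe the mean was 1.61-fold below knockout-labelled testes on chow, a difference of -0.69 (SE 0.18, 95% interval -1.14 to -0.23, limma adjusted p = 0.705, unadjusted p = 0.0119). Both comparisons use the same knockout-labelled arrays, so they are not independent. Ezetimibe-fed and wild-type testes differed by -0.10 (SE 0.18, 95% interval -0.55 to 0.36, adjusted p = 0.925). Knockout replicate 2 held the highest Fshr signal, and without it the first difference was 0.38 and the second -0.48.

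Clu encodes clusterin, a secreted glycoprotein that is among the most abundant products of Sertoli cells. It read 19.54 and 19.54 in wild-type, 19.69 and 19.63 in knockout-labelled and 19.37 and 19.54 in ezetimibe-fed testes. The knockout-labelled arrays were again highest and the ezetimibe arrays lowest, with no overlap between any 2 groups. The gaps were small. Knockout-labelled exceeded wild-type testes by 0.12 (SE 0.10, limma adjusted p = 0.684), or 1.08-fold. Ezetimibe-fed testes differed from knockout-labelled testes on chow by -0.20 (SE 0.10, 95% interval -0.47 to 0.06, adjusted p = 0.913), and -0.11 without ezetimibe replicate 1. Against wild-type the difference was -0.09 (SE 0.10, adjusted p = 0.88), and -0.0059 without ezetimibe replicate 1. Clu was very bright, with a raw signal of 389779 on wild-type replicate 2 and 786218 to 968956 on the other arrays, and its signal-to-noise was 83.19 to 114.31.

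Cldn11, the claudin that builds Sertoli cell tight junctions, read 10.71 and 10.14 in wild-type, 10.85 and 10.75 in knockout-labelled and 10.52 and 10.68 in ezetimibe-fed testes. Its order of means was that of the knockout-labelled group first, then ezetimibe, then wild-type. Wild-type replicate 2, the dim array, was the lowest. Knockout-labelled testes differed from wild-type by 0.38 (SE 0.21, limma adjusted p = 0.583) but by 0.10 without wild-type replicate 2 and by 0.66 without wild-type replicate 1 (adjusted p = 0.964 and 0.165). With ezetimibe it was -0.20 against knockout-labelled testes on chow (SE 0.21, adjusted p = 0.937), and -0.12 without ezetimibe replicate 1. Ezetimibe-fed minus wild-type testes gave 0.17 (SE 0.21, adjusted p = 0.883), and -0.11 without wild-type replicate 2.

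Trf, the gene of the iron carrier transferrin, had another order. It read 10.00 and 9.63 in wild-type, 9.17 and 9.37 in knockout-labelled and 9.42 and 8.67 in ezetimibe-fed testes. The wild-type arrays were above all 4 knockout-labelled arrays, while the knockout-labelled groups on chow and on ezetimibe overlapped. Knockout-labelled testes were 1.46-fold below wild-type, a difference of -0.55 (SE 0.29, limma adjusted p = 0.576), and ezetimibe-fed testes 1.71-fold below wild-type, a difference of -0.77 (SE 0.29, 95% interval -1.52 to -0.03, adjusted p = 0.675). The second value was -0.41 without ezetimibe replicate 2, which held the lowest signal, and -1.14 without ezetimibe replicate 1. Without wild-type replicate 1 the first was -0.36. Between the knockout-labelled groups it differed by -0.23 (SE 0.29, adjusted p = 0.948), and by 0.14 without ezetimibe replicate 2.

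Wt1, a zinc-finger transcription factor of the Sertoli cell lineage, showed the smallest differences of the 5 tested genes in each comparison. It read 12.64 and 12.95 in wild-type, 12.87 and 12.86 in knockout-labelled and 12.82 and 12.85 in ezetimibe-fed testes. The wild-type arrays lay on either side of all 4 others. The differences were 0.07 for knockout-labelled minus wild-type (SE 0.13, 95% interval -0.27 to 0.41, limma adjusted p = 0.851), -0.03 for ezetimibe minus knockout-labelled (95% interval -0.37 to 0.31, adjusted p = 0.985) and 0.04 for ezetimibe minus wild-type (95% interval -0.31 to 0.38, adjusted p = 0.968).

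Sox9, the transcription factor that starts Sertoli cell fate, missed the filter and was not tested. It was detected on wild-type replicate 1 (signal-to-noise 4.94) and knockout replicate 1 (8.32), and lay between 2.43 and 2.91 on the other 4 arrays. Its signals were 9.25 and 9.07 in wild-type, 9.79 and 9.05 in knockout-labelled and 8.66 and 8.36 in ezetimibe-fed testes. The ezetimibe arrays were lowest, and neither detected it. On the measured signals the knockout-labelled mean on chow, detected on 1 of 2 arrays, was 1.88-fold higher than with ezetimibe. The wild-type mean, likewise detected on 1 of 2, was 1.57-fold higher than with ezetimibe. Both folds rest on values close to the detection limit and are not lower limits. The first difference, -0.91, was -0.53 without knockout replicate 1, the only one of its group that detected Sox9. Without knockout replicate 2 it was -1.27.

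Gata4, a transcription factor of the somatic cells of the testis, and Amh, the hormone of immature Sertoli cells, were not well above background on any array. Their signal-to-noise lay between -3.07 and -0.24 for Gata4 and between 0.38 and 1.92 for Amh. Levels below detection cannot be ordered, so no fold is given for either gene.

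**Figure D2:**
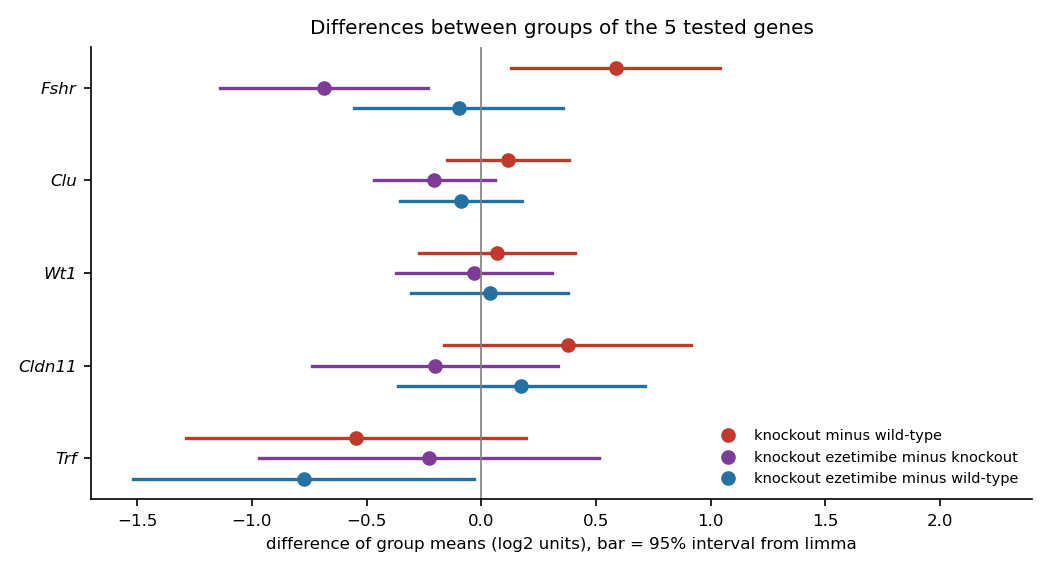
Differences of group means (log2 units) of the 5 tested Sertoli cell genes in the 3 comparisons, with 95% intervals from limma as bars and a grey line at 0. The intervals of Fshr in both comparisons with knockout-labelled testes on chow, and of Trf between ezetimibe-fed and wild-type testes, leave out 0, and the other intervals hold it. No adjusted p was under 0.05.

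Set side by side, 0 of the 5 genes passed in any comparison. Among all 16015 probes limma called 2 between knockout-labelled and wild-type testes (0.0125%), 0 between the knockout-labelled diets (0%) and 2 between ezetimibe-fed and wild-type testes (0.0125%). At an unadjusted p under 0.05 each comparison held 1 of the 5 genes, namely Fshr, Fshr and Trf, where 8.99%, 5.76% and 7.24% of all probes did.

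Between knockout-labelled and wild-type testes 4 of the 5 genes lay above 0 and Trf below, with a median of 0.12 against 0.0052 over all probes. Of the 5, 3 were higher with no overlap between the groups and 1 was lower, where 22.6% and 21.1% of all probes were so. With ezetimibe all 5 lay below 0 against knockout-labelled testes on chow, with a median of -0.20 against 0.0009 over all probes. Here 4 were lower with no overlap, where 19.7% of all probes were, and 0 were higher, where 19.1% were. The exception among the 5 was Trf, and Wt1 was among the 4 with a difference of only -0.03. Against wild-type, ezetimibe-fed testes had 2 genes above and 3 below 0, with 2 lower and 0 higher with no overlap, beside 18.2% and 18.6% of all probes. No test was made of the list.

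Over the 6 arrays Fshr followed Clu (Pearson r = 0.72) and Cldn11 (r = 0.62) and had an r near 0 with Wt1 (-0.0011) and Trf (-0.0076). Trf had a negative r with each of the other 4 genes, from -0.46 for Wt1 to the value for Fshr. These values describe 6 arrays that share 1 normalisation, and the groups themselves make up part of the spread.

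A wider list of 50 genes linked to Sertoli cells held 39 on the array and 33 that were tested, and 0 of the 33 passed in any comparison. Between knockout-labelled and wild-type testes 24 lay above 0 and 9 below (median 0.07), where 50.9% of all probes lay above 0. Relative to the median of all probes the count above was 23, and it was 18 of 33 without wild-type replicate 2. With ezetimibe 7 lay above 0 and 26 below (median -0.09), where 50.2% of all probes lay above, and 7 to 11 lay above the median of all probes when each array was left out in turn. Between ezetimibe-fed and wild-type testes 15 lay above and 18 below (median -0.02), and 10 lay above the median of all probes without wild-type replicate 2. These counts describe the list and are not a test.

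Among the genes of the wider list with the lowest p, Slc38a5, an amino acid transporter that Sertoli cells use to take up glutamine, read 14.62 and 14.46 in wild-type, 15.01 and 14.90 in knockout-labelled and 14.53 and 14.58 in ezetimibe-fed testes. As with Fshr, both knockout-labelled arrays on chow were above the 4 others, and the wild-type and ezetimibe groups overlapped. The differences were 0.42 (SE 0.11, limma adjusted p = 0.472) against wild-type and -0.40 (SE 0.11, adjusted p = 0.727) with ezetimibe. The dopamine receptor gene Drd4 differed by 0.48 (SE 0.15, adjusted p = 0.513) and -0.38 (adjusted p = 0.872) in the same comparisons, the latter -0.25 without knockout replicate 1. Vim, the intermediate filament vimentin, differed by 0.11 (adjusted p = 0.674) and -0.28 (adjusted p = 0.811). Dhh, the hedgehog ligand by which Sertoli cells signal to the interstitium, differed by 1.93 between knockout-labelled and wild-type testes (SE 0.67, adjusted p = 0.54), by 0.92 without wild-type replicate 2 and by 2.91 without wild-type replicate 1. Dhh was not detected on wild-type replicate 2, where it read 7.32, against 9.36 on wild-type replicate 1 and 10.48 and 10.04 in knockout-labelled testes.

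**Figure D3:**
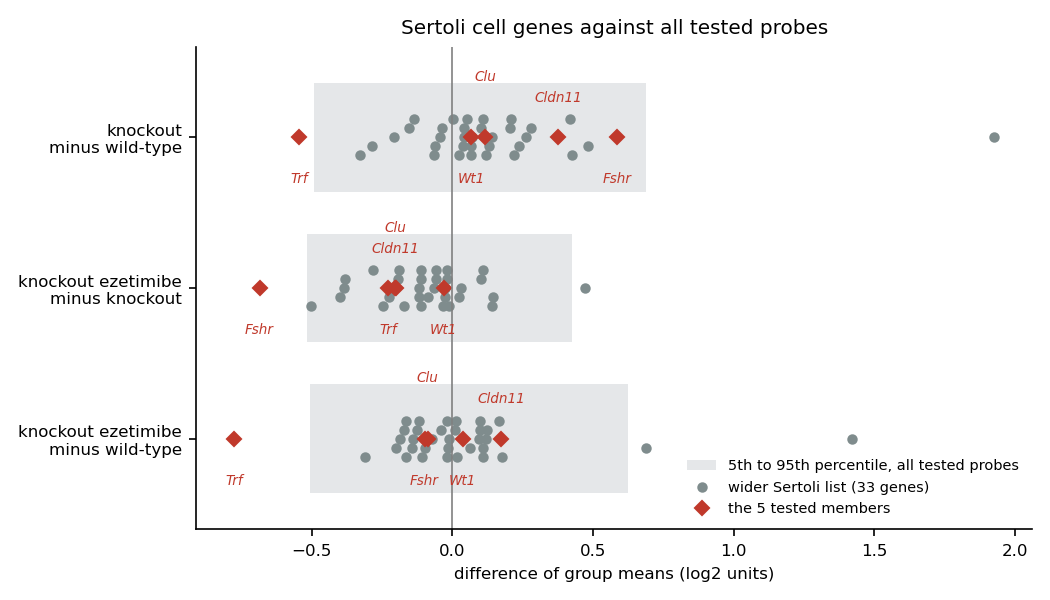
Differences of group means (log2 units) in the 3 comparisons: the 5 tested Sertoli cell genes as red diamonds with their names, the 33 tested genes of the wider Sertoli list as grey points (their height within a band only separates them), and the 5th to 95th percentile of all 16015 probes as grey bands. Fshr lies below the band with ezetimibe against knockout-labelled testes on chow, and Trf lies below the band in both comparisons with wild-type. Dhh is the far point on the right in both comparisons with wild-type and the lowest of the 33 with ezetimibe against knockout-labelled testes on chow, at -0.50.

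Genes that carry the signal of the FSH receptor were counted from a list of 23, with 14 tested, Fshr included. Of the 14, 9 lay above and 5 below 0 between knockout-labelled and wild-type testes, 5 above and 9 below with ezetimibe against knockout-labelled testes on chow, and 7 above and 7 below between ezetimibe-fed and wild-type testes, and 0 passed. Creb1, a transcription factor switched on by cyclic AMP signalling, differed by 0.28 (SE 0.14, limma adjusted p = 0.574) and -0.66 (SE 0.14, adjusted p = 0.594) in the comparisons that involve knockout-labelled testes on chow. Prkar2b, a regulatory subunit of protein kinase A, went the other way at -0.27 (adjusted p = 0.571), or -0.14 without wild-type replicate 2, and 0.47 (adjusted p = 0.75). Adcy3, an adenylate cyclase, differed from wild-type by -0.46 on chow and -0.47 on ezetimibe (adjusted p = 0.535 and 0.645), and by -0.26 and -0.28 without wild-type replicate 2. Egr1, an immediate early gene, was detected on both wild-type arrays and on none of the others. Since it met the filter only through wild-type, where it was bright, its tests against wild-type give no support for a difference. Against wild-type its measured signal was 3.40-fold lower in knockout-labelled testes (limma adjusted p = 0.26) and 5.37-fold lower with ezetimibe (adjusted p = 0.143).

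Of 26 genes of the junctions between Sertoli cells, 17 were tested, Cldn11 included, and 0 passed. Between knockout-labelled and wild-type testes 7 lay above and 10 below 0, with ezetimibe 9 above and 8 below, and between ezetimibe-fed and wild-type testes 7 above and 10 below. Ocln, the tight junction protein occludin, was detected on both wild-type arrays, on 1 ezetimibe array and on no knockout-labelled array on chow. It met the filter only through wild-type, the group in which it was brightest. The test of Ocln against wild-type therefore gives no support for a difference. Its measured signal was 2.95-fold lower in knockout-labelled than in wild-type testes (limma adjusted p = 0.434) and 2.21-fold lower than with ezetimibe (adjusted p = 0.779). The latter difference, 1.14 (95% interval 0.27 to 2.02), was 0.68 without knockout replicate 1. Cldn3, a claudin of newly forming junctions, differed by -0.33 with ezetimibe (SE 0.15, adjusted p = 0.892), and by -0.16 without knockout replicate 1 and -0.50 without knockout replicate 2. Itgb1, an integrin subunit, differed by -0.27 (adjusted p = 0.876) and Tln1, its adaptor talin, by -0.23 (adjusted p = 0.894) in the same comparison.

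The inhibin and activin list had 8 of 25 genes tested, and 0 passed in any comparison, with 2 above 0 against wild-type, 3 above 0 with ezetimibe and 3 above 0 between ezetimibe-fed and wild-type testes. Inha, the inhibin alpha subunit that Sertoli cells release under FSH, read 15.33 and 15.47 in wild-type, 15.37 and 15.35 in knockout-labelled and 15.32 and 15.17 in ezetimibe-fed testes. Its wild-type and knockout-labelled values overlapped, and the ezetimibe arrays were lowest. The differences were -0.04 (SE 0.11, limma adjusted p = 0.88) and -0.12 (SE 0.11, adjusted p = 0.924). Amhr2, the receptor for the hormone of Amh, was detected on all 6 arrays and differed by -0.06 in both of these comparisons (adjusted p = 0.824 and 0.969).

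Iron handling genes gave 6 tested of 16, Trf included, and 0 passed. They split 3 above and 3 below 0 against wild-type in both knockout-labelled groups, and 1 above and 5 below with ezetimibe against knockout-labelled testes on chow. Tfr2, a transferrin receptor, differed by -0.22 (SE 0.10, limma adjusted p = 0.558) and 0.33 (SE 0.10, adjusted p = 0.779), and Ncoa4, which frees iron from ferritin, by 0.38 (adjusted p = 0.527), or 0.24 without wild-type replicate 2, and -0.22 (adjusted p = 0.913). The ferritin chains Ftl1 and Fth1 differed by 0.17 and 0.14 (adjusted p = 0.644 and 0.696), then by -0.31 and -0.12 (adjusted p = 0.878 and 0.942). Of a list of 14 genes drawn up as Clu partners and apolipoprotein receptors, 3 were tested, Clu included. Apoe, the lipid carrier apolipoprotein E, differed by 0.24 and -0.72 (SE 0.14, limma adjusted p = 0.593 and 0.54). Cd5l differed by 0.13 and -0.12 (adjusted p = 0.806 and 0.964). Without wild-type replicate 2 the first Apoe value was 0.07.

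Fshr shares chromosome 17 with the targeted gene. Genes of this chromosome are called measured where a probe met the filter, and genes without such a probe were passed over. In the RefSeq order of GRCm38.p6, 18 measured genes lie between Abcg8 and Fshr, and no measured gene lies beyond Fshr. The last of them before Fshr were Ston1, an endocytic adaptor gene, and then Gtf2a1l, a germ cell transcription factor subunit. Ston1 read 12.65 and 12.94 in wild-type, 10.46 and 10.65 in knockout-labelled and 10.45 and 10.76 in ezetimibe-fed testes. Both wild-type arrays were above all 4 others, and the knockout-labelled groups overlapped. The differences from wild-type were -2.25 on chow (SE 0.17, limma adjusted p = 0.163) and -2.19 on ezetimibe (SE 0.17, adjusted p = 0.143), and neither passed. The other, dimmer Ston1 probe had the same sign with other sizes, -0.65 and -1.34 (SE 0.20, adjusted p = 0.512 and 0.373).

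Gtf2a1l, the nearest measured gene, differed from wild-type by -0.11 (SE 0.12, adjusted p = 0.737) and -0.01 (adjusted p = 0.991). Fshr differed from wild-type by 0.59 in knockout-labelled testes on chow and by -0.10 on ezetimibe. These 2 groups have the same genotype label, and the difference between them did not pass. Whether the place of Fshr on the chromosome of the targeted gene bears on its signal was not tested.

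**Figure D4:**
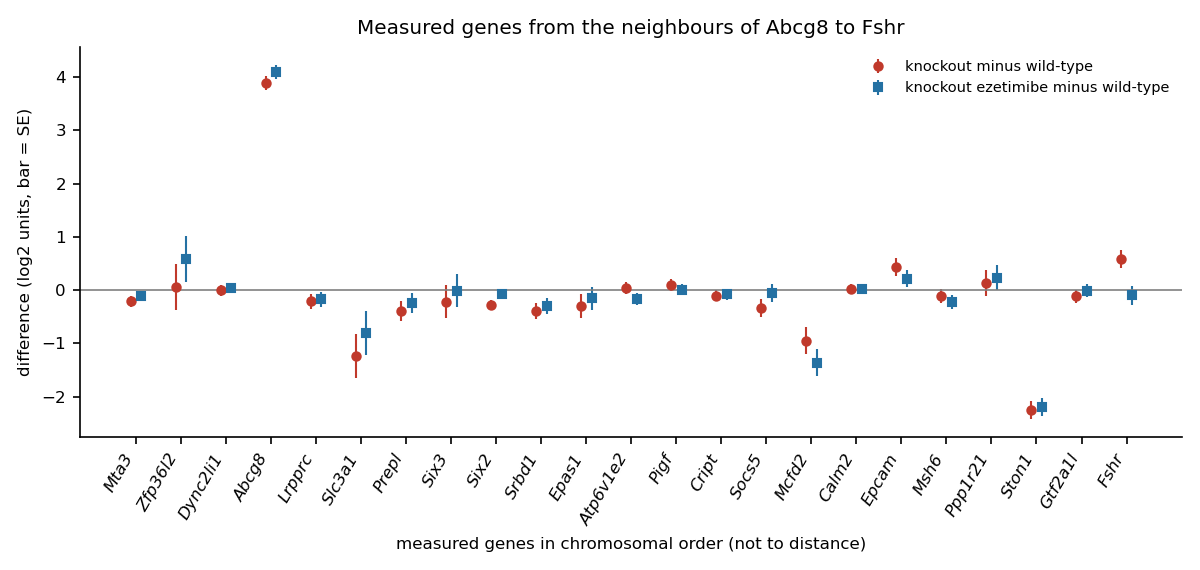
Difference from wild-type (log2 units, bars are SE) of the measured genes of chromosome 17 from 3 genes before Abcg8 to Fshr, in chromosomal order with equal spacing; red circles are knockout-labelled testes on chow and blue squares ezetimibe-fed knockout-labelled testes. Abcg8 stands at 3.88 and 4.10 and Ston1 at -2.25 and -2.19 in the 2 groups, while Fshr stands at 0.59 and -0.10. Other genes of the stretch lie away from 0 too. Slc3a1 stands at -1.24 and -0.81 (SE 0.41), Mcfd2 at -0.95 and -1.36 (SE 0.25) and Epcam at 0.43 and 0.22 (SE 0.16).

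Markers of other cells were read on the same arrays, and none of them passed in any comparison. The red cell gene Hba-a1 read 15.93 and 15.91 in wild-type, 18.29 and 17.26 in knockout-labelled and 14.99 and 15.69 in ezetimibe-fed testes, the order of groups seen for Fshr and Clu. Its differences were 1.85 (SE 0.41, limma adjusted p = 0.435) and -2.43 (SE 0.41, adjusted p = 0.495), and Alas2, the haem enzyme of red cells, differed by 0.27 and -0.44 (adjusted p = 0.612 and 0.876), the former 0.06 without wild-type replicate 2. The summed signal of these 2 genes was 66077 to 68503 on wild-type arrays, 163149 to 326714 on knockout-labelled arrays and 36791 to 57807 on ezetimibe arrays. The part of blood content in the Sertoli cell values was not tested.

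The Leydig cell list, with 5 of 7 markers tested, had all 5 below 0 with ezetimibe against knockout-labelled testes on chow. Its summed signal was 72647 to 72938 in wild-type, 79217 to 79806 in knockout-labelled and 55782 to 65942 in ezetimibe-fed testes. Against wild-type 2 lay above and 3 below 0 on chow, and all 5 lay below 0 on ezetimibe. Cyp11a1, which starts steroid synthesis, differed by 0.45 and -0.67 (SE 0.14, limma adjusted p = 0.512 and 0.566), in the same order as Fshr. The steroid enzyme genes Hsd3b6 and Hsd17b3 and the cholesterol transport gene Star were lower with ezetimibe too, without passing. Hsd3b6 differed by -0.48 and -0.39 (adjusted p = 0.434 and 0.728), Hsd17b3 by -0.03 and -0.52 (adjusted p = 0.957 and 0.779, the latter -0.32 without ezetimibe replicate 2) and Star by -0.05 and -0.13 (adjusted p = 0.861 and 0.918).

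The macrophage list, with 6 of 8 markers tested, had 2 above and 4 below 0 against wild-type and 1 above and 5 below with ezetimibe. Its summed signal was 59124 to 64145 in wild-type, 63450 to 65398 in knockout-labelled and 48399 to 54074 in ezetimibe-fed testes. With ezetimibe the complement genes C1qc and C1qa differed by -0.44 and -0.40 (limma adjusted p = 0.654 and 0.701), Lyz2 by -0.39 (adjusted p = 0.838, and -0.23 without ezetimibe replicate 1) and Cd14 by 0.03 (adjusted p = 0.988). The peritubular list, with 3 of 6 tested, summed to 15199 to 15993, 14926 to 15263 and 13883 to 14367 in the 3 groups in the same order. Its members Acta2, Tagln and Myh11 differed by -0.19, -0.03 and -0.15 with ezetimibe (adjusted p = 0.913, 0.979 and 0.918). The endothelial list, with 3 of 6 tested, summed to 1710 to 2553, 3129 to 3689 and 2517 to 3304. Between knockout-labelled and wild-type testes 2 of its members lay above and 1 below 0. Egfl7 differed by 1.39 (limma adjusted p = 0.203), Kdr by 0.48 with overlap (adjusted p = 0.691) and Tek by -0.17 (adjusted p = 0.873). Tek was detected on both knockout-labelled arrays on chow (signal-to-noise 3.47 and 3.18) and on no other array. Its sign therefore rests on undetected wild-type signals, and its place below 0 cannot be read as a lower level. Egfl7 was under the detection limit on wild-type replicate 2 (signal-to-noise 2.71). All these lists, like the Sertoli cell genes, had 0 members that passed. Their part in the Sertoli cell values was not tested.

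Germ cell lists had these means, each relative to its average over the arrays. The spermatocyte list (6 of 8 tested) read between -0.11 and 0.07 and the round spermatid list (5 of 8 tested) between -0.05 and 0.04. The elongating spermatid list (7 of 8 tested) read 0.23 on wild-type replicate 2 and between -0.07 and -0.03 elsewhere. The spermatogonia list (5 of 7 tested) read -0.12 and -0.42 on the wild-type arrays and 0.01 to 0.25 on the others, with 2 of its genes not detected on the lowest of these. The Sertoli cell list of 5 had means of 0.10 and -0.08 in wild-type, 0.09 and 0.17 in knockout-labelled and -0.11 and -0.17 in ezetimibe-fed testes.

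**Figure D5:**
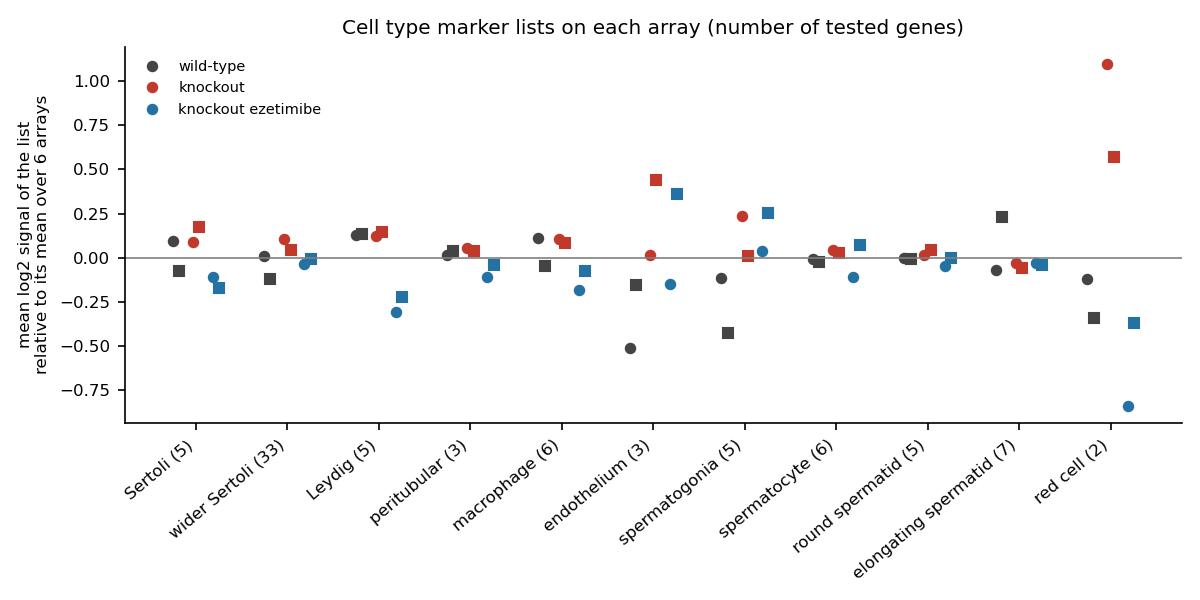
Mean normalised log2 signal of each marker list on each array, relative to the list's mean over the 6 arrays, with the number of tested genes in brackets; circles are replicate 1 and squares replicate 2. Both ezetimibe arrays lie below the other 4 for the Sertoli, Leydig, peritubular, macrophage and red cell lists, and the knockout-labelled arrays on chow lie highest for the red cell list.

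The genes most like Fshr over the 6 arrays, among 6923 probes with a proper gene name that were detected on every array, were Srp19 (Pearson r = 0.99), Camk2g (0.99), Zan (0.99), Adgrg1 (0.98) and Arpc1b (0.98). Srp19 encodes a protein of the signal recognition particle and Zan the sperm protein zonadhesin. A correlation with Fshr over 0.9 was reached by 85 of these probes. The 5 named genes had smaller differences than Fshr, with 0.10 to 0.21 between knockout-labelled and wild-type testes and -0.22 to -0.12 with ezetimibe.

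The genes most like Clu were Nt5el (r = 0.99), Schip1 (0.99), Lamb1 (0.98), Serbp1 (0.97) and Itgb1 (0.97), and 44 probes exceeded 0.9. Lamb1 encodes a laminin chain of basement membranes and Itgb1 an integrin subunit that binds laminins. With ezetimibe Lamb1 differed by -0.39 (SE 0.12, limma adjusted p = 0.786) and Schip1 by -0.55 (SE 0.16, adjusted p = 0.779). These correlations are a description over 6 arrays.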

How the data were processed

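Per the labels' protocols, total testis RNA was turned into digoxigenin-carrying cRNA for 1-colour arrays. The deposited raw table has, per the file headers, 1 intensity (Signal) and 1 signal-to-noise score for each probe on each array. Neither headers nor labels say how noise or background was estimated. The deposited processed table holds intensity values that, when set against the raw ones, differ from them by a single factor on each array. No slide or scan date was given, so no batch was tested, and 0 further per-sample columns were left out.

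Raw signals were taken as log2 and quantile-normalised over 33012 probes. Probes were kept where both arrays of any group had a signal-to-noise of 3 or more. limma 3.58.1 in R 4.3.3 (lmFit, eBayes, 1 mean per group, all 6 arrays) gave differences, with Benjamini-Hochberg adjustment over 16015 probes within a comparison and a threshold of 0.05. The script was tested on simulated data. With 2 arrays a group the smallest exact permutation p is 0.333, and therefore only limma's p-values are given. The number of arrays limits the precision (median SE 0.14). Each array has its own identifier in the labels, but nothing says how the RNA samples were taken, so p-values measure the spread between these arrays, which may be technical in part.

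Where a probe was detected on no array of a group, the fold was set against its own signal or the lowest detected signal, whichever is higher. For Sox9, Egr1 and Ocln this was their own signal, so their folds are measured ones and leave out the spread between arrays. Tek did not read higher in the group that detected it, so no fold is given for Tek. Gene names came from the platform annotation, and RefSeq (GRCm38.p6), looked up by gene identifier, altered 0 of the symbols. The annotation gave 14411 probes 1 symbol, 247 several and 18354 none listed. For genes other than the Sertoli cell genes named at the outset, the kept probe with the highest mean signal stood for the gene. Named were all 9 Sertoli cell genes, up to 4 genes with the lowest p of each list, the measured chromosome 17 genes from Ston1 on with Abcg8, Hba-a1, and the 5 genes most correlated with Fshr and with Clu. Slc3a1, Mcfd2 and Epcam were chosen after their values were seen. Genes and lists were chosen with earlier results of these data known. Figures were drawn with matplotlib 3.10.9.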

Additional observations from a re-analysis of the deposited data

How the results depend on the processing

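The count of Sertoli cell genes that passed was 0 in all 3 comparisons under every alternative run: normexp background correction, median scaling, the deposited processed values, no filter or a filter on all 6 arrays, an intensity trend or robust prior, array weights, only the 4 arrays compared, and each of 6 arrays left out. Over these Fshr differed by 0.38 to 0.78 between knockout-labelled and wild-type testes (lowest adjusted p = 0.237) and by -0.88 to -0.48 with ezetimibe (lowest adjusted p = 0.496). Under median scaling the median of all probes was 0.11, -0.05 and 0.06 in the 3 comparisons, against 0.0052, 0.0009 and 0.0042 in the main fit. Fshr then stood at 0.68, -0.73 and -0.05. Signs turned for some differences, not all of them near 0 (in the main fit Trf was -0.23 between the diets), and the cause was not tested. With each array left out, Wt1 ranged from -0.0886 (without wild-type replicate 1) to 0.2215 between knockout-labelled and wild-type testes. Between ezetimibe-fed and wild-type testes Wt1 ranged from -0.1203 (without wild-type replicate 1) to 0.19, Fshr from -0.2252 to 0.0242 (without wild-type replicate 1) and Cldn11 from -0.1071 (without wild-type replicate 2) to 0.4552. Trf ranged from -0.5944 to 0.144 (without ezetimibe replicate 2) between the diets. The untested Sox9, at 0.2565 between knockout-labelled and wild-type testes, ranged from -0.1127 (without knockout replicate 1) to 0.6242.

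Calls among all probes, 2, 0 and 2, became 0 and 0 for the first and last with no filter. With detection on all arrays the first and last became 4 and 3. The last was also 3 with median scaling and with the deposited processed values. The calls were 31, 14 and 26 with the trend, 1 for the last with array weights, and 0 and 1 for the first and last with only 4 arrays. With each array left out they ranged from 0 to 1, 0 to 4 and 0 to 3. Relative to the median of all probes, and chosen after seeing the data, 3 to 4, 0 to 1 and 1 to 2 of the 5 Sertoli cell genes and 18 to 24, 7 to 11 and 10 to 16 of the 33 wider genes lay above with each array left out. The left-out values of genes other than the 9 Sertoli cell genes were likewise chosen after seeing the data. Where a group kept 1 array, that array is assumed to vary like the rest. No paired analysis was possible because the mice of different groups share no number or litter in the labels. Dim signals limit Fshr and Sox9, whose signal-to-noise was near 3 on some arrays. Trf and Cldn11 are limited too, with a signal-to-noise of 3.92 for Trf on ezetimibe replicate 2 and 4.32 for Cldn11 on wild-type replicate 2.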
